A study of Mus musculus with 4 samples.

Results

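Gsk3a and Gsk3b encode the paralogous serine/threonine kinases GSK-3alpha and GSK-3beta. All probe sets that the platform annotation assigns to either gene were taken, which gave 2 of 18193 genes and 7 of the 45037 probe sets other than controls, 1 for Gsk3a and 6 for Gsk3b. Their levels were measured in hearts of mice whose GSK-3beta carries the S9A replacement (serine 9 to alanine) and in hearts of wild-type mice, with 2 arrays per group. All samples were labelled C57B6 and taken at baseline, at 3.5 months of age in the knock-in group and 3.6 months in the wild-type group. Whether the knock-in mice carried 1 or 2 copies of the allele, their sex, and whether each array held RNA of a separate animal are not given in the sources used here. Labels of the wild-type arrays say that the same 2 arrays also served a comparison with GSK-3alpha knock-in mice, but that the values used here were normalized with the GSK-3beta knock-in arrays only.

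GSK-3 is active in resting cells and is switched off when kinases such as Akt, acting downstream of insulin, phosphorylate a serine near its amino terminus. That serine is serine 21 in GSK-3alpha and serine 9 in GSK-3beta, and an alanine in its place leaves the kinase insensitive to this inhibition. In heart muscle GSK-3 phosphorylates glycogen synthase, nuclear factors of activated T cells and GATA4, and within a complex with axin and APC it marks beta-catenin for destruction. The replacement acts on the protein, so a transcript array can neither detect the altered codon nor measure kinase activity. What the arrays show is whether the transcripts of the altered gene and of its paralog differ between the groups.

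The measurement was one of 3′ expression arrays, on which each probe set summarises several short oligonucleotides as a log2 value. Array medians ran from 5.97 to 6.04, and Pearson's r between arrays over all probe sets from 0.994 to 0.996, where probe sets are not independent replicates. All 7 cardiomyocyte markers, among them Myh6, Tnnt2 and Myl2, lay at or above the 98.8th percentile of gene means. The 7 liver markers, led by Alb, were all higher on both knock-in arrays than on both wild-type arrays. Their mean log2 level was 6.32 and 5.81 on the wild-type arrays and 7.35 and 8.12 on the knock-in arrays. Of all 18193 genes, 3561 lay above on both knock-in arrays in this way. Adipoq, an adipocyte marker, also lay higher on both knock-in arrays, at 6.47 and 6.54 against 5.11 and 5.65, while the other 2 measured adipocyte markers, Lep and Retn, overlapped. Groups also lay apart in 4 of the 7 cardiomyocyte markers, all above, with a mean difference over the 7 of 0.04 against 1.67 for liver. Of the other cell types, 2 of 4 macrophage, 1 of 6 skeletal muscle and 1 of 3 fibroblast markers lay above. Below lay 1 macrophage and 1 of 3 lymphocyte markers. Gaps between the 3′ and 5′ control probe sets of Gapdh were 0.64 and 0.60 on the wild-type arrays and 0.77 and 0.54 on the knock-in arrays, and those of Actb 0.45 and 0.39 against 0.37 and 0.28. The gap between the 3′ and middle control probe sets of Actb was larger on both knock-in arrays, at 0.77 and 0.83 against 0.68 and 0.66, with knock-in 2 highest. That of Gapdh overlapped, at -0.05 and -0.000691 against 0.04 and -0.05. The part of liver transcripts or of RNA quality in the values that follow was not tested.

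No probe set of either kinase passed the test, and the probe sets of Gsk3b disagreed in direction. The brightest was higher in knock-in hearts, 4 others were lower, and 1 dim probe set differed by 0.03. The log2 differences ran from -0.42 to 0.18, while the only Gsk3a probe set differed by 0.04. Each of the 7 was tested in a limma fit over all 45037 probe sets with Benjamini-Hochberg adjustment, in which 0 probe sets passed an adjusted p of 0.05 (0% of those tested) and 2628 (5.84%) had an unadjusted p under 0.05, none of them among the 7.

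Gsk3a, whose kinase was not altered in these mice, was measured by probe set 1435638_at, which was brighter than 95.3% of all probe sets. Its log2 values were 10.71 and 10.80 on the wild-type arrays and 10.76 and 10.83 on the knock-in arrays. Groups overlapped, with wild-type 2 between the knock-in arrays. Group means were 10.76 ± 0.06 for wild-type and 10.80 ± 0.05 for knock-in (SD, n = 2), a difference of 0.04 with a standard error of 0.10 and a 95% interval from -0.21 to 0.30 (adjusted p of 0.993 from limma). The difference was -0.00288 after quantile normalization and -0.00135 without wild-type 1. In whole heart, fewer cells of a type and less RNA per cell cannot be told apart. On the linear scale the interval leaves room for a level between 13.8% lower and 22.8% higher in knock-in hearts.

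Gsk3b, the altered gene, was covered by 6 probe sets of unequal brightness. Probe sets 1454958_at, 1437001_at and 1451020_at were brighter than 90.5%, 88.2% and 84.4% of all probe sets. The dimmer ones, 1434439_at, 1439931_at and 1439949_at, were brighter than 60.3%, 60.0% and 55.4%. Brightness also depends on the probes and is no measure of transcript amount. The array method gives no detection call, so a dim value need not reflect a transcript. All 6 names end in a plain _at, which on this platform marks a design against a single transcript. The annotation lists 1454958_at and 1434439_at under the same sequence record, and the other 4 under records of their own.

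The brightest Gsk3b probe set, 1454958_at, read 9.62 and 9.72 on the wild-type arrays and 9.82 and 9.87 on the knock-in arrays. Both knock-in values lay above both wild-type values. The difference was 0.18 with a standard error of 0.11, or 1.13-fold, and its 95% interval ran from -0.08 to 0.43 (adjusted p of 0.897 from limma).

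The next brightest, 1437001_at, showed the opposite order and the largest difference of the 7. It read 9.53 and 9.72 in wild-type hearts and 9.49 and 8.91 in knock-in hearts. Knock-in 1 was close to wild-type 1, and knock-in 2 stood well below the other arrays. Group means were 9.62 ± 0.13 and 9.20 ± 0.41 (SD, n = 2). The difference was -0.42 with a standard error of 0.20 and a 95% interval from -0.91 to 0.07 (adjusted p of 0.870 from limma). It was -0.13 without knock-in 2 and -0.71 without knock-in 1.

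The third bright probe set, 1451020_at, read 8.976 and 9.004 in wild-type and 8.918 and 8.745 in knock-in hearts. Its groups lay apart with knock-in 2 lowest. The difference was -0.16 with a standard error of 0.11 and a 95% interval from -0.43 to 0.11 (adjusted p of 0.916 from limma), and it was -0.07 without knock-in 2 and -0.25 without knock-in 1.

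Of the dim probe sets, 2 resembled 1437001_at and 1451020_at. Probe set 1439931_at read 6.68 and 6.92 in wild-type and 6.58 and 6.45 in knock-in hearts. Its difference was -0.28, with a 95% interval from -0.59 to 0.03 (adjusted p of 0.868 from limma), and -0.16 without wild-type 2. Both groups lay apart here too, with the gap between wild-type 1 and knock-in 1 smaller than the spread within the wild-type group. Probe set 1439949_at read 6.33 and 6.70 against 6.30 and 6.06. The difference was -0.33, with a 95% interval from -0.73 to 0.06 (adjusted p of 0.870 from limma), and -0.15 without wild-type 2. Its groups lay apart only narrowly, with wild-type 1 at 6.33 and knock-in 1 at 6.30, closer than the wild-type arrays were to each other.

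The remaining dim probe set, 1434439_at, had overlapping groups, at 6.70 and 6.61 in wild-type and 6.65 and 6.72 in knock-in hearts. Its difference of 0.03 had a 95% interval from -0.23 to 0.28 (adjusted p of 1 from limma). It became -0.02 without wild-type 2 and -0.00834 without knock-in 2.

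**Figure D1:**
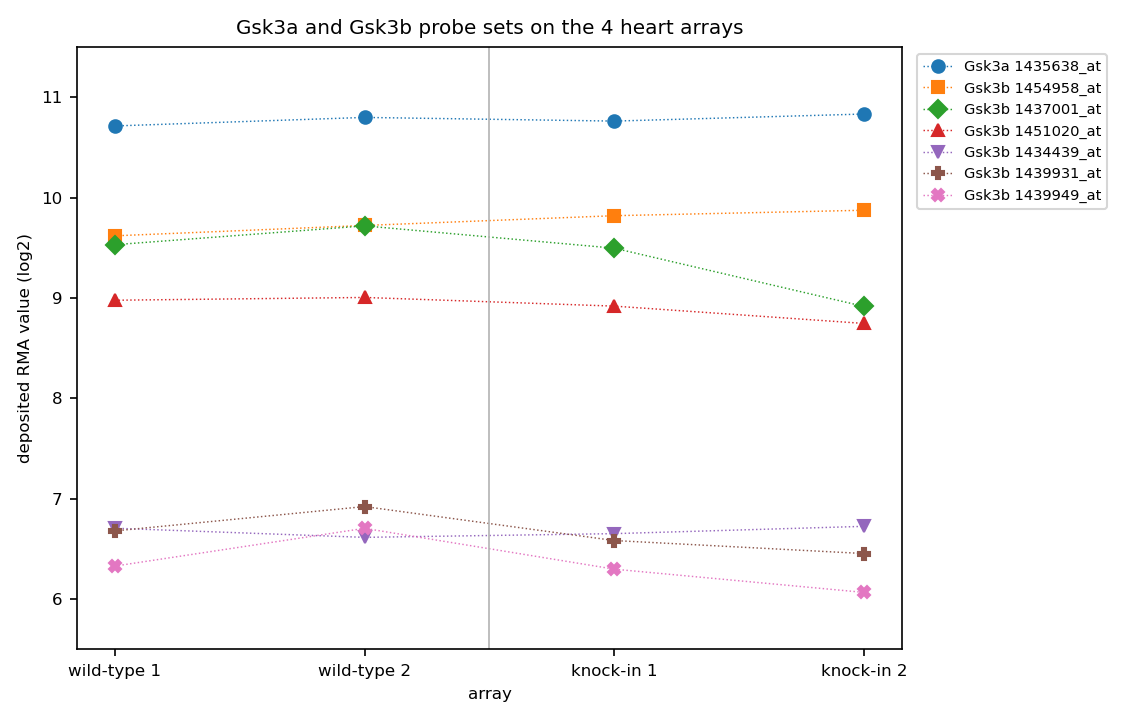
Deposited log2 value of each Gsk3a and Gsk3b probe set (vertical axis) on the 4 arrays (horizontal axis), 1 point per array, with dotted lines only to link the points of a probe set. The Gsk3a points lie between 10.71 and 10.83, the brightest Gsk3b probe set is highest on both knock-in arrays, and 1437001_at drops to 8.91 on knock-in 2.

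Counted together, 5 of the 7 probe sets had groups that did not overlap, 1 with the knock-in arrays above and 4 with them below. Over all probe sets the share was 33.9%, with 15.7% above and 18.2% below. The 4 that lay below, 1437001_at, 1451020_at, 1439931_at and 1439949_at, shared an order in which wild-type 2 was the highest array and knock-in 2 the lowest. Over all probe sets 4.5% had this order, or 24.8% of the 8179 whose knock-in arrays both lay below. These 4 measure the same gene in the same 4 samples and are not independent. Taking each probe set's values around its own mean, the Euclidean distance over the 4 arrays was smallest between 1439931_at and 1439949_at, at 0.13, and largest among these 4 between 1437001_at and 1451020_at, at 0.40. From each of the 4 to the brightest probe set the distance was 0.38 to 0.75, the largest being that of 1437001_at. Probe set 1434439_at, outside the 4, was nearest to the brightest probe set, 1454958_at, at 0.20. It was 0.27 from 1451020_at, nearer than 1439949_at (0.31) and 1437001_at (0.40) were to that probe set. From the other 3 of the 4 its distance was 0.42 to 0.67.

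**Figure D2:**
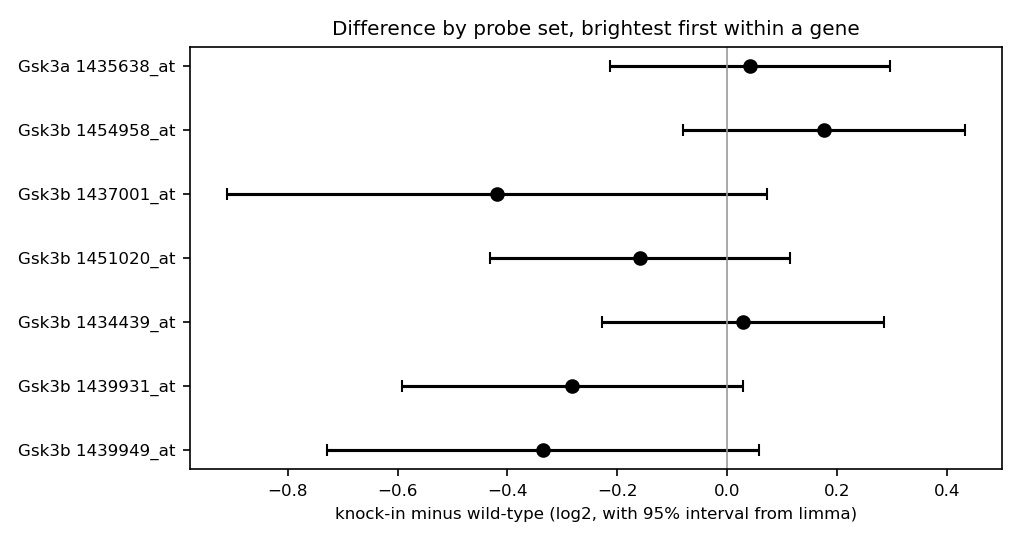
Knock-in minus wild-type log2 difference (horizontal axis) of each probe set (vertical axis), where points are limma estimates from 2 arrays per group and bars their 95% intervals. All 7 intervals include 0, and the estimates for Gsk3b lie on both sides of it, from -0.42 to 0.18.

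To test whether probe sets of Gsk3b differ from one another in their response, each was set against the brightest, 1454958_at, on the same array. The resulting gap removes whatever raises or lowers both probe sets alike. All 5 gaps were lower in knock-in hearts, with no overlap between groups, but none passed. Over the 16752 such gaps of 9010 genes, 18.1% had the knock-in arrays below, and 5 gaps (0.0298%) passed the limma test. Those 5, named after their values were seen, belonged to Car3, Per3 and Atp8a1. Since the 5 gaps of Gsk3b share 1 reference probe set, which was itself higher on the knock-in arrays, their common direction counts as 1 observation.

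The gap of 1437001_at was -0.09 and -0.00395 on the wild-type arrays and -0.32 and -0.96 on the knock-in arrays. It thus differed by -0.60 with a standard error of 0.21, or 1.51-fold, and a 95% interval from -1.08 to -0.11 (adjusted p of 0.983 from limma). Without knock-in 2 the gap differed by -0.28, and without knock-in 1 by -0.91. For the dim 1439949_at the gap was -3.29 and -3.02 in wild-type and -3.52 and -3.81 in knock-in hearts, a difference of -0.51 with a 95% interval from -0.92 to -0.11. For 1439931_at it was -2.94 and -2.80 against -3.24 and -3.42, a difference of -0.46 with a 95% interval from -0.82 to -0.09. These 3 gaps had unadjusted p under 0.05, as did 4.94% of all gaps, and each had an adjusted p of 0.983 from limma. The gaps of 1451020_at and 1434439_at differed by -0.34 and -0.15, with intervals that include 0. The former was -0.22 without knock-in 2, and the latter ran from -0.05 without wild-type 1 to -0.25 without wild-type 2.

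With the mean of the gene's other probe sets as reference in place of the brightest one, 1454958_at was 1.98 and 1.93 above them in wild-type and 2.23 and 2.49 above them in knock-in hearts. That gap was larger in both knock-in arrays, by 0.41 with a 95% interval from 0.06 to 0.76 (adjusted p of 1 from limma). Against this reference 1437001_at differed by -0.30, 1439949_at by -0.20, 1439931_at by -0.14, 1451020_at by 0.00748 and 1434439_at by 0.23. None of these 5 had an unadjusted p under 0.05 from limma, so the unadjusted calls of 1437001_at, 1439931_at and 1439949_at above rest on the brightest probe set as reference.

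**Figure D3:**
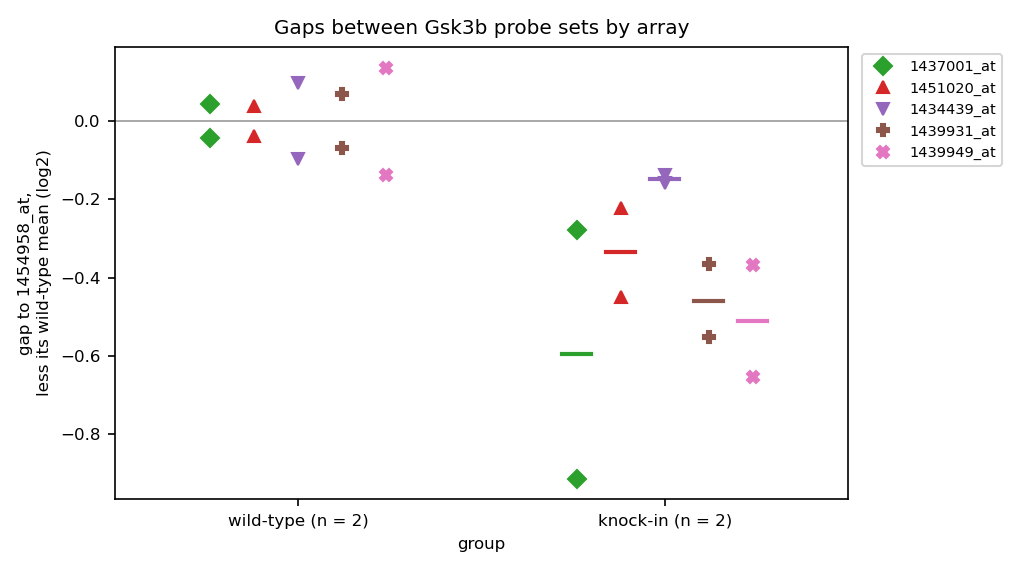
Log2 gap of 5 Gsk3b probe sets to 1454958_at on each array, less the probe set's wild-type mean (vertical axis), by group (horizontal axis), with points for arrays and bars for knock-in means. All knock-in points lie below both wild-type points of the same probe set, and the 2 knock-in points of 1437001_at are the farthest apart.

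A disagreement of this size was not rare among genes with as many probe sets as Gsk3b. The differences of the 6 Gsk3b probe sets spanned 0.60 on the log2 scale, against a median span of 0.35 over the 244 genes that also have 6 probe sets, and 12.7% of these genes spanned at least as much. Of the same 244 genes, 88.1% had probe sets on both sides of 0. Over all 9010 genes with 2 or more probe sets the median span was 0.18, and 2.71% spanned at least as much as Gsk3b.

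The level reported for Gsk3b as a gene therefore depends on how its probe sets are combined. By its brightest probe set it was 0.18 higher in knock-in hearts (adjusted p of 0.761 from limma over 18193 genes). By the mean of its 6 probe sets it was lower, at 7.97 and 8.11 in wild-type and 7.96 and 7.80 in knock-in hearts, a difference of -0.17 with a standard error of 0.11 and a 95% interval from -0.42 to 0.09 (adjusted p of 0.880). By the probe set listed first, 1434439_at, the difference was 0.03. Gsk3a has a single probe set, so the choice does not arise for it. No direction for Gsk3b can be given from these arrays.

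Genes whose brightest probe set ran most like that of each kinase were found among 9095 genes brighter than the median, by the Euclidean distance over the 4 arrays between values centred on each gene's mean. For Gsk3a they were Ppp4r1, Trim35 and Slc39a11, at distances of 0.00874 to 0.0122. For Gsk3b they were Stard9, Htt and Triqk, at 0.0113 to 0.0157, with differences of 0.18, 0.18 and 0.19. With 4 arrays this likeness is a description only.

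No listed gene whose product acts on GSK-3, binds it, is phosphorylated by it or phosphorylates its substrates first (priming) passed the test. Of 55 such genes 50 were measured and the other 5 were not analysed here. In the gene test, where each gene is represented by its brightest probe set, 1 of 18193 genes passed (0.0055%), which was Cdkn1a and no member of the list. At an unadjusted p under 0.05 from limma there were 5 members (10%), 4 higher and 1 lower, where 7.39% of all genes did so, 4.4% higher and 2.99% lower. Groups lay apart in 23 members (46%), against 36.5% of all genes. The list and its roles were chosen with earlier results of these data known. Shares of the list set beside those of all genes, here and below, are therefore a description and no test. The median difference over the 50 was 0.03, and over all genes 0.000238.

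Among kinases that phosphorylate the inhibitory serine, 7 were measured and Sgk1, which is induced by glucocorticoids and other stimuli, differed most. It read 9.92 and 10.42 in wild-type and 9.39 and 9.49 in knock-in hearts. Both knock-in values lay below both wild-type values, a difference of -0.74 with a standard error of 0.17 (adjusted p of 0.366 from limma), and -0.48 without wild-type 2. The catalytic subunits of protein kinase A, Prkaca and Prkacb, differed by 0.18 and 0.17 and lay above on both knock-in arrays. Without knock-in 2 these became 0.10 and 0.08, and Prkacb differed by 0.05 with its probe sets averaged and by 0.00961 with the first listed. The insulin-responsive Akt1 differed by 0.20 with overlapping groups, by 0.07 without knock-in 2, and by -0.01 when its 4 probe sets were averaged.

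Catalytic subunits of protein phosphatases 1 and 2A, which can remove the inhibitory phosphate, differed by 0.01 to 0.13. Only Ppp1cb had groups that lay apart, at 10.49 and 10.70 in wild-type and 10.74 and 10.71 in knock-in hearts. Its difference of 0.13 was 0.03 without wild-type 1. Ppp1ca differed by 0.08 (0.01 without wild-type 2), Ppp1cc by 0.08 (-0.03 without wild-type 1) and Ppp2ca by 0.06 (-0.09 without wild-type 1 and -0.02 with its probe sets averaged).

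Of the scaffolds and binding partners, 10 were measured, 8 of them lower and 2 higher in knock-in hearts, none past the threshold. Over all genes 49.8% were lower. Amer1, a membrane-bound partner of APC, read 7.53 and 7.43 in wild-type and 7.16 and 7.31 in knock-in hearts, a difference of -0.24. The GSK-3 binding protein Frat1 differed by -0.11 (-0.05 without knock-in 2), the tumour suppressor Apc by -0.11 (-0.04 without knock-in 2, 0.02 with its probe sets averaged and 0.18 with the first listed), and the feedback inhibitor Axin2 by 0.16 (0.06 without wild-type 2). Beta-catenin itself, Ctnnb1, differed by -0.04.

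Priming kinases place the phosphate that GSK-3 needs on many of its substrates, and all 5 listed were measured. Dyrk2 read 9.18 and 9.24 in wild-type and 8.97 and 9.01 in knock-in hearts, a difference of -0.22 with groups that lay apart (-0.13 with its probe sets averaged). Cdk5 differed by 0.20 with its brightest and by -0.13 with its first listed probe set, and by 0.08 without wild-type 2. Dyrk1a differed by 0.04 and Csnk2a2 by -0.09, both with overlapping groups. The sign of Dyrk1a turned in 4 alternatives, between -0.33 with the first listed probe set and -0.02 without wild-type 1. Csnk2a2 stood at 0.05 without wild-type 2 and at 0.00358 without knock-in 2.

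Of the 23 substrates 16 were higher and 7 lower, with 4 at an unadjusted p under 0.05 from limma, all higher. Of all genes 49.8% were lower, and 4.4% were higher at that p. Cry2, a circadian repressor, read 8.59 and 8.50 in wild-type and 9.05 and 8.95 in knock-in hearts, a difference of 0.45 with a standard error of 0.10 (adjusted p of 0.354 from limma). The AP-1 subunit Jun read 9.02 and 9.22 against 9.39 and 9.76, a difference of 0.45 with a standard error of 0.15 (adjusted p of 0.562), and 0.27 without knock-in 2, where its unadjusted p from limma was 0.140. Cyclin D1, Ccnd1, differed by 0.38 (0.18 without knock-in 2 and also with its first listed probe set). The transcriptional repressor Snai1 differed by 0.26 (0.18 without wild-type 2). In these 4 both knock-in arrays were above both wild-type arrays. The same held for Nr1d1, Nfe2l2, Gys1 (glycogen synthase of muscle) and Nfatc3, with differences of 0.40, 0.39, 0.09 and 0.09. In another 4, the microtubule-associated Dpysl2, Map1b and Mapt and the transcription factor Myc, both were below, with differences of -0.24, -0.12, -0.12 and -0.19. Groups thus lay apart in 12 of the 23 substrates (52.2%), 8 above and 4 below. Of all 18193 genes 36.5% lay apart, 3561 above and 3084 below. Since the substrates were listed with earlier results of these data known, these shares are a description only. Gata4 differed by 0.02.

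**Figure D4:**
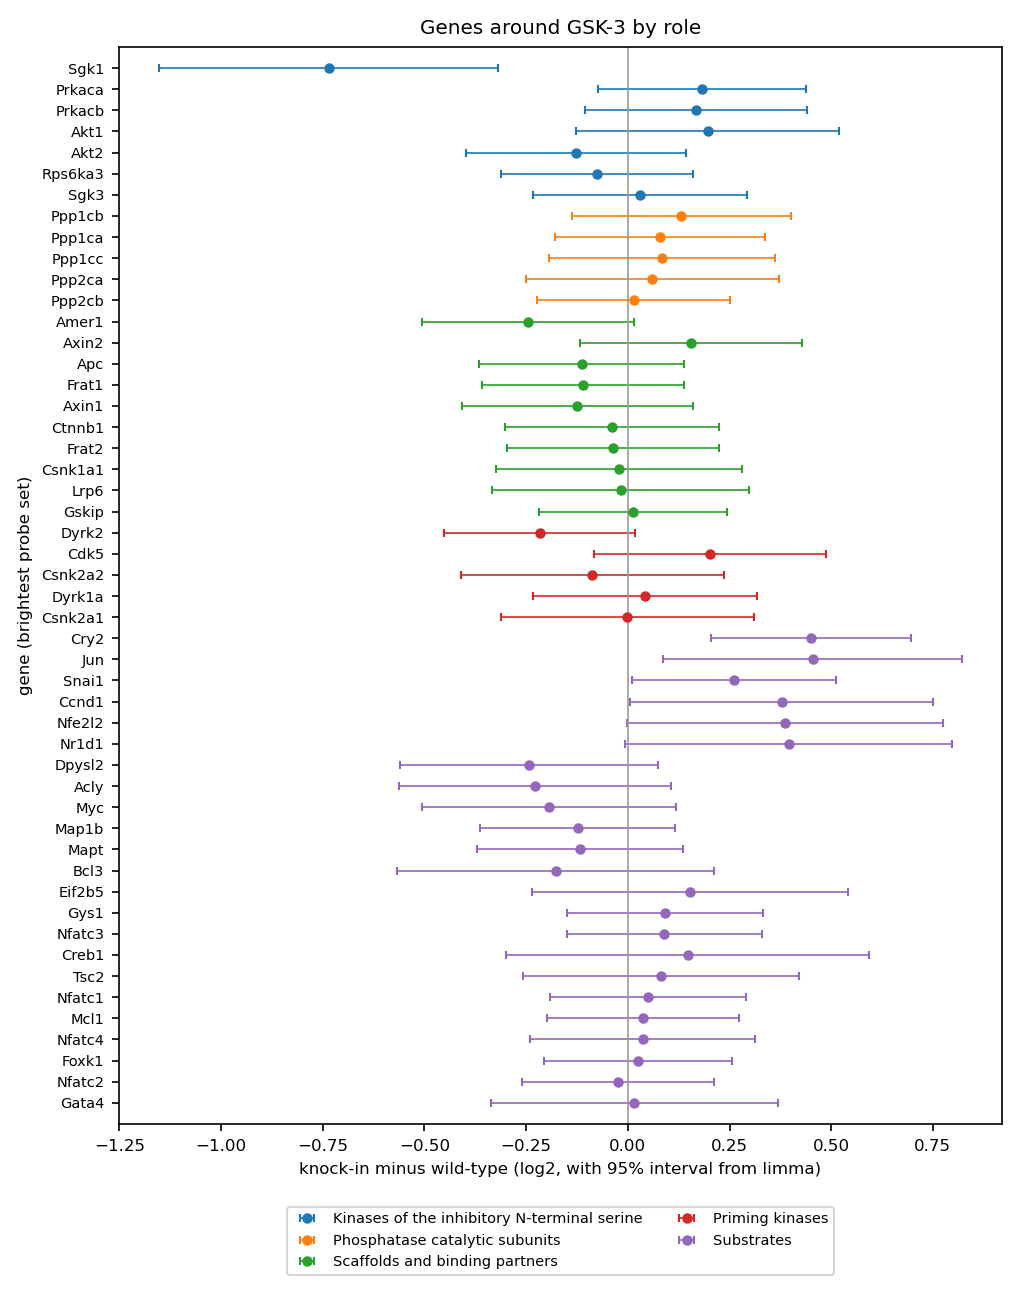
Knock-in minus wild-type log2 difference (horizontal axis) for 50 genes around GSK-3 (vertical axis), coloured by role and ordered by p within a role, where points are limma estimates from 2 arrays per group and bars 95% intervals. Sgk1 lies lowest at -0.74, Jun and Cry2 highest at 0.45, and all but 5 intervals include 0.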

How the data were processed

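The deposited values were log2 expression values of 4 Affymetrix arrays, made with RMA in Affymetrix Expression Console per the submitters' processing notes, with no version given in the sources used here. RMA shares quantile normalization across arrays and gives no detection call. The number of arrays limits the precision.

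Of 45101 probe sets, 64 controls were left out. The platform annotation gave 1 symbol for 34945, several for 932 and none for 9160. Entrez identifiers linked 34741 of the first to current symbols in RefSeq's GRCm38.p6 gene table. Its coordinates are not printed, since the sources used here name no build.

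The tests used limma 3.58.1 (lmFit, eBayes) under R 4.3.3, two-sided, without trend, adjusted by Benjamini-Hochberg at 0.05, on all probe sets, on the brightest probe set of 18193 genes, and on gaps to it. Intervals are limma's at 95%. With 2 arrays per group the smallest two-sided p of an exact permutation test is 0.333, so limma's shared prior carries the tests. Nothing in the labels says that arrays of a group are separate animals, and the spread behind each p may be technical. Deviations of same-numbered arrays correlated at -0.05, so numbers were not taken as pairs. The members, the list and its roles were chosen with earlier results of these data known. Named genes were all member probe sets, the 4 list genes of smallest p per role and the 3 genes most alike to each kinase. Ctnnb1, Gys1, Gata4, Dpysl2, Map1b, Mapt, Myc, Nr1d1, Nfe2l2, Nfatc3, the marker genes and the features that passed were named after their values were seen. Alternatives were the replicate block, a trend with robust prior, centring, quantile normalization, brighter features alone, named probe sets alone, other representatives or references, and each array left out.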

Additional observations from a re-analysis of the deposited data

How the results depend on the processing

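None of the 14 values for Gsk3a and Gsk3b passed in any alternative tried. With the replicate number as a block (replicate block) all 14 kept their direction, with a lowest adjusted p of 0.805 from limma, while 0 genes and 7 gaps passed. Directions turned for Gsk3a with quantile normalization (-0.00288) and without 1 array (range -0.00135 to 0.0837), for 1434439_at without 1 array (-0.0175 to 0.0735), for Gsk3b with averaged probe sets (-0.165), and against the mean of the other probe sets for the gaps of 1451020_at (0.00748) and 1434439_at (0.232). Over all features, 19 probe sets passed with a trend and robust prior (10 higher) and 8 with quantile normalization (5 higher), against 0 in the main test and in the other alternatives, where 1614 to 3702 had an unadjusted limma p under 0.05. For genes the counts were 22 (12 higher) and 11 (7 higher), with 11 (7 higher) after centring, 11 (8 higher) with averaged probe sets, 7 (3 higher) above the median alone and 0 with the first listed probe set, against 1. For gaps they were 8, 1 with quantile normalization, 0 above the median alone and 0 against the mean of the others, against 5. Without any 1 array 0 genes and 0 gaps passed (limma), and over all alternatives 677 to 1966 genes and 393 to 1229 gaps had an unadjusted p under 0.05. The lowest and highest gap counts come from unequal numbers tested, 393 of 7789 above the median alone and 1229 of 25762 against the mean of the others. Among 20 named list genes, 206 of 219 alternative values kept their direction and none passed. Those that turned were Akt1 (-0.0126), Apc (0.0239), Ppp2ca (-0.0231) and Dyrk1a (-0.0719) with averaged probe sets, Apc (0.178), Cdk5 (-0.130) and Dyrk1a (-0.332) with the first listed, and without 1 array Ppp1cc (-0.0323 to 0.200), Ppp2ca (-0.0936 to 0.214), Csnk2a2 (-0.228 to 0.0542) and Dyrk1a (-0.0521 to 0.137).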
